A study of Rattus norvegicus with 2 samples.

Results

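The pentose phosphate pathway was described through 8 genes, Pgls, Pgd, Rpia, Rpe, Tkt, Taldo1, Prps1 and Prps2, out of 14217 genes named on the array. The genes were taken for their place in the pathway, with earlier results of these data known, and every probe set whose only annotated gene symbol was one of these counted as a member, which gave 12 probe sets. The samples were the liver remnants of rats 24 h after partial hepatectomy (PH), an operation that takes out some of the liver's lobes. One group had lost 1/3 of the liver (1/3PH) and the other 2/3 (2/3PH), and each was 1 array of RNA pooled from 3 rats. The design text describes 2/3PH as followed by robust DNA replication and 1/3PH by a minimal response, and the comparison asks which transcripts differ between them. The labels used here give no strain, sex or age of the rats, and no sham-operated or unoperated liver was analysed here. A higher level after 2/3PH therefore has no resting level to be set against.

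The pathway takes hexose phosphate from glycolysis and has a pair of arms. The oxidative arm is irreversible and yields NADPH, which liver uses to build fatty acids and sterols and to keep glutathione reduced, and it ends in a pentose phosphate. The non-oxidative arm is reversible and interconverts pentose phosphates with glycolytic sugars, so that ribose phosphate can be made with or without NADPH. PRPP synthetases then activate ribose phosphate to phosphoribosyl pyrophosphate (PRPP), the ribose donor for purine, pyrimidine and NAD nucleotides. Pgls and Pgd are enzymes of the oxidative arm, Rpia, Rpe, Tkt and Taldo1 those of the non-oxidative arm, and Prps1 and Prps2 the synthetases. The enzyme of the first oxidative step was not analysed here.

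Promoters from RefSeq were matched for 7 of the 8 members, and that of Pgls was not used here. The 250 bases before the start are shown for Prps1 and Prps2, the members with the highest ratios, and for Pgd, the member with the lowest, to set the start regions of these opposite cases side by side. They are written 5′ to 3′ on the gene's strand in assembly GRCr8, at chrX:108920413-108920662 (+) for Prps1, chrX:30592595-30592844 (+) for Prps2 and chr5:164882030-164882279 (-) for Pgd. Capitals mark the CCAAT box (CCAAT) and the GC box (GGGCGG), each on either strand.
Prps1: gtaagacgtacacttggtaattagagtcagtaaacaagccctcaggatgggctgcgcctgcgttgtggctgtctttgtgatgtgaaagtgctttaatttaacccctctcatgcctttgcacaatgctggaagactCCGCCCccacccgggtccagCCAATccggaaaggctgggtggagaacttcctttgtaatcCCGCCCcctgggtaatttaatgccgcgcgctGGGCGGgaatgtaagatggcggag
Prps2: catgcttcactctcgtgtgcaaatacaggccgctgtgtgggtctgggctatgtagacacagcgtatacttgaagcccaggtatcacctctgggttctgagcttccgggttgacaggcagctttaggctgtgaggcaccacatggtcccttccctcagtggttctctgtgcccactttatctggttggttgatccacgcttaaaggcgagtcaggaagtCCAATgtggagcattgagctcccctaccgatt
Pgd: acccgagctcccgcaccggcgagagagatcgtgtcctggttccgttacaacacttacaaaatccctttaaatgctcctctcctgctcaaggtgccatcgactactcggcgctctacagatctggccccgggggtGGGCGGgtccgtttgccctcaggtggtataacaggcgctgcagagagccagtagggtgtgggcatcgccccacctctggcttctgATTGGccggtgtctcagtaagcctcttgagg
All 3 windows held a CCAAT box, 95 to 91 bases before the start in Prps1, 32 to 28 in Prps2 and, on the other strand, 31 to 27 in Pgd. Prps1 had 3 GC boxes, Pgd had 1, and these letters were not in the Prps2 window. Over the 7 member windows, 5 held a CCAAT box and 4 a GC box, beside 34.0% and 30.5% of 33469 windows of the same length. The member windows held 53.6% to 62.4% G and C, beside a median of 51.2% over all windows, and the shares were not adjusted for it. The antioxidant response element core (TGACNNNGC) was in none of the 7 and in 10.1% of all windows, and the E-box (CACGTG) in none of the 7 and in 5.59%. Both strands were searched, and no match overlapped another in the printed windows.

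All 8 members were measured above the signal floor by the probe set that represents them. The floor, a log2 signal of 6.48 or a signal of 89.2, is the middle value of mean log2 signal among the non-control probe sets, and 9514 of the 14217 genes reached it. Differences are log2 ratios, 2/3PH minus 1/3PH, on the deposited scale, and a gene called higher or lower is so on the 2/3PH array. The only error the arrays themselves give is the disagreement between probe sets of a gene. Over the 2067 genes read by more than 1 probe set above the floor, its SD was 0.33 in the log2 ratio, which makes 0.46 for the difference between a pair of probe sets. It leaves out the variation between rats and between arrays. Across all genes above the floor the log2 ratio had a median of 0.03 and an SD of 0.66.

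Within the pathway the synthetases were higher after 2/3PH, the non-oxidative enzymes were slightly higher, and of the oxidative enzymes Pgd was lower and Pgls slightly higher. Of the 8 members, 7 had a log2 ratio above 0, as did 52.9% of all genes above the floor. Prps1 was the 1 member at least 2-fold higher, where 6.12% of all genes were. No member was at least 2-fold lower, where 3.68% of all genes were. At 1.5-fold, Prps1 and Prps2 were higher, beside 15.8% of all genes, and Pgd was lower, beside 12.0%. The median over the members was 0.28, from -0.62 for Pgd to 1.16 for Prps1.

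**Figure D1:**
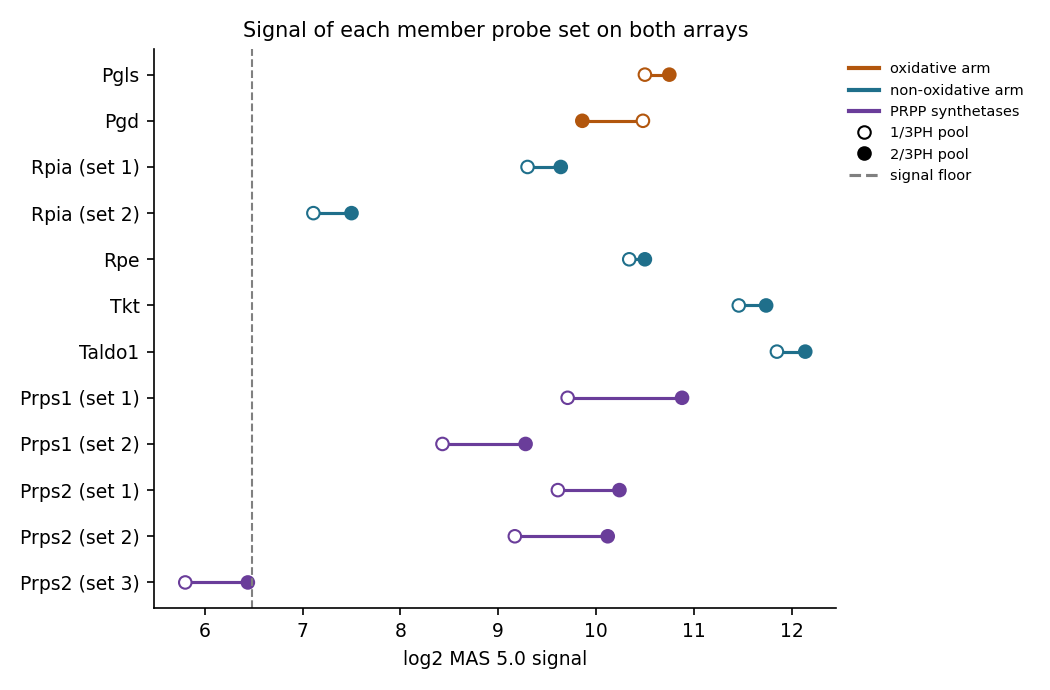
Log2 MAS 5.0 signal (horizontal axis) of each of the 12 member probe sets on the 1/3PH array (open circles) and the 2/3PH array (filled circles), coloured by arm, with the signal floor dashed; sets of a gene are numbered from the brightest. In 11 of the 12 the filled circle lies to the right, and Pgd is the exception. The 12 sets read 8 genes, and 5 of the sets read Prps1 or Prps2. Of all genes above the floor, 52.9% had a log2 ratio above 0.

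The oxidative arm was represented by Pgls and Pgd, which went opposite ways. Pgls, the lactonase that opens the ring of the first product, read 1453 in the 1/3PH pool and 1717 in the 2/3PH pool, 1.18-fold higher, with a log2 ratio of 0.24. That lay within the SD of 0.33 between probe sets of a gene, and 34.0% of all genes above the floor had a ratio at least as high. Pgd, the decarboxylating dehydrogenase that yields NADPH and ribulose phosphate, had signals of 1424 and 927, a log2 ratio of -0.62, or 1.54-fold lower. Of all genes above the floor, 11.0% had a ratio as low or lower. Pgls exceeded Pgd by 0.86 in log2 ratio, 1.86 times the SD of a difference between probe sets. Each had a single usable probe set, so neither has a second reading on the same arrays. A further 4 probe sets list Pgd together with 3 other genes and were not used.

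The non-oxidative enzymes were the most alike. Rpia, the isomerase that makes ribose phosphate from ribulose phosphate, had signals of 630 after 1/3PH and 796 after 2/3PH, 1.26-fold higher. Its dimmer probe set, at 138 and 182, gave 1.32-fold. Rpe, the epimerase that makes xylulose phosphate from the same substrate, had signals of 1297 and 1447, 1.12-fold higher. The isomerase and the epimerase, which share ribulose phosphate, thus had the highest and the lowest ratio of this arm as deposited, but Taldo1 was above Rpia under quantile normalization and loess. Tkt, transketolase, which moves a carbon fragment between sugars, had signals of 2826 and 3409, 1.21-fold higher. Taldo1, transaldolase, which moves a longer fragment, had signals of 3703 and 4514, 1.22-fold higher. Their log2 ratios were 0.34 for Rpia, 0.29 for Taldo1, 0.27 for Tkt and 0.16 for Rpe, a range of 0.18 that is smaller than the SD of 0.33 between probe sets of a gene. No neighbours in that order differed beyond this error. None of the 4 was past 1.5-fold, and between 28.0% and 40.3% of all genes above the floor had ratios at least as high.

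The contrast of the arms rested on Pgd. The median log2 ratio was -0.19 over the 2 oxidative genes and 0.28 over the 4 non-oxidative genes, a difference of -0.47. Pgls, at 0.24, lay inside the non-oxidative range of 0.16 to 0.34. Pgd lay 0.78 below the lowest non-oxidative gene, a log2 difference of -0.78. With a pair of genes in one arm and no replicate array, the difference between the arms was not tested.

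The PRPP synthetases had the highest ratios of the pathway. The brighter probe set of Prps1, the widely expressed form, read 839 in the 1/3PH pool and 1882 in the 2/3PH pool, 2.24-fold higher, with a log2 ratio of 1.16. The dimmer set of Prps1 had signals of 345 and 620, 1.79-fold higher, so its call at 2-fold came from the brighter set, and the mean of both sets gave a log2 ratio of 1.00. Of all genes above the floor, 4.31% had a ratio at least as high as that of the brighter set. Both readings of Prps1 thus lay above those of all 6 enzymes of the arms.

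Prps2, the second form, had signals of 780 and 1209 by its brightest probe set, a log2 ratio of 0.63, or 1.55-fold higher. Its next set, at 577 and 1116, gave 1.94-fold, and its dimmest set gave 1.56-fold from signals of 55.8 and 87.0, both under the floor. The sets of Prps1 spanned log2 ratios of 0.84 to 1.16 and those of Prps2 0.63 to 0.95, so the readings of the paralogs overlapped. Prps1 exceeded Prps2 by 0.53 between the brightest sets, 1.16 times the SD of a difference between probe sets. The proteins of the paralogs are nearly identical, and whether their probes also bind each other's transcripts was not tested. All 5 synthetase probe sets were higher after 2/3PH, and the lowest of them, at 0.63, exceeded the highest reading of the non-oxidative genes, 0.40.

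**Figure D2:**
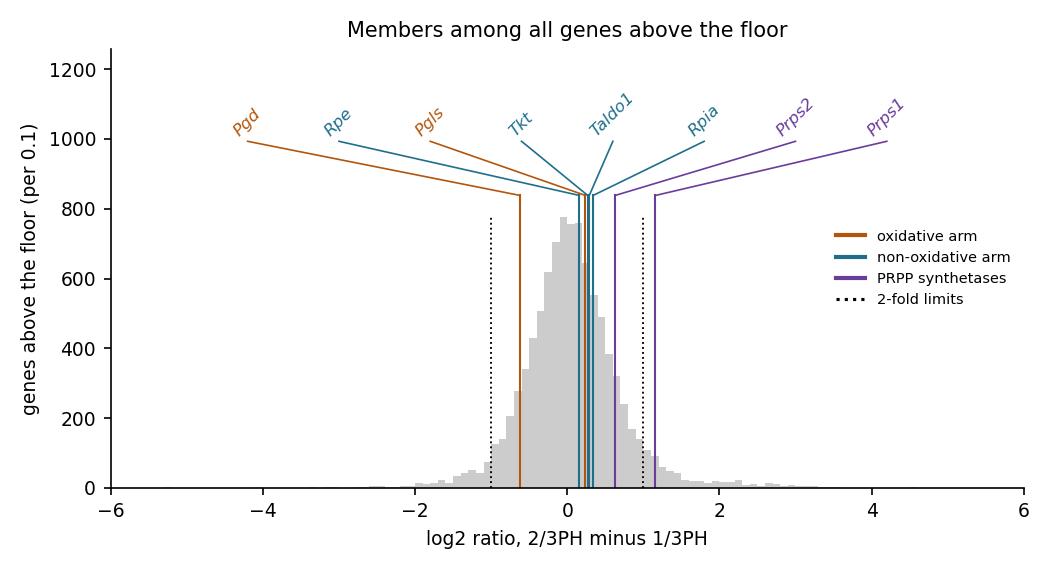
Number of genes above the floor (vertical axis, in steps of 0.1) by log2 ratio, 2/3PH minus 1/3PH (horizontal axis), with the 8 members as coloured lines and the 2-fold limits dotted. Prps1 at 1.16 lies past the upper limit, Prps2 at 0.63 and Pgd at -0.62 lie on the shoulders, and the other 5 members lie close together between 0.16 and 0.34.

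Other scalings of the arrays left the synthetases highest and Pgd lowest. MAS 5.0 sets both arrays to the same mean signal, so these values cannot show whether cells of the groups held unequal amounts of RNA. Scaling to the hybridisation controls moved the median of all genes above the floor by 0.24, and scaling to the poly-A controls by 0.43. Under median centring, quantile normalization, loess and both control scalings Pgd stayed below 0, from -0.69 to -0.19, and the other 7 members stayed above 0. The median of the oxidative arm, -0.19 as deposited, turned positive under both control scalings, at 0.05 and 0.24. Centring and both control scalings shift all genes alike and so cannot alter a difference between genes. Under quantile normalization and loess, which can, the difference between the arms was -0.50 and -0.51.

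**Figure D3:**
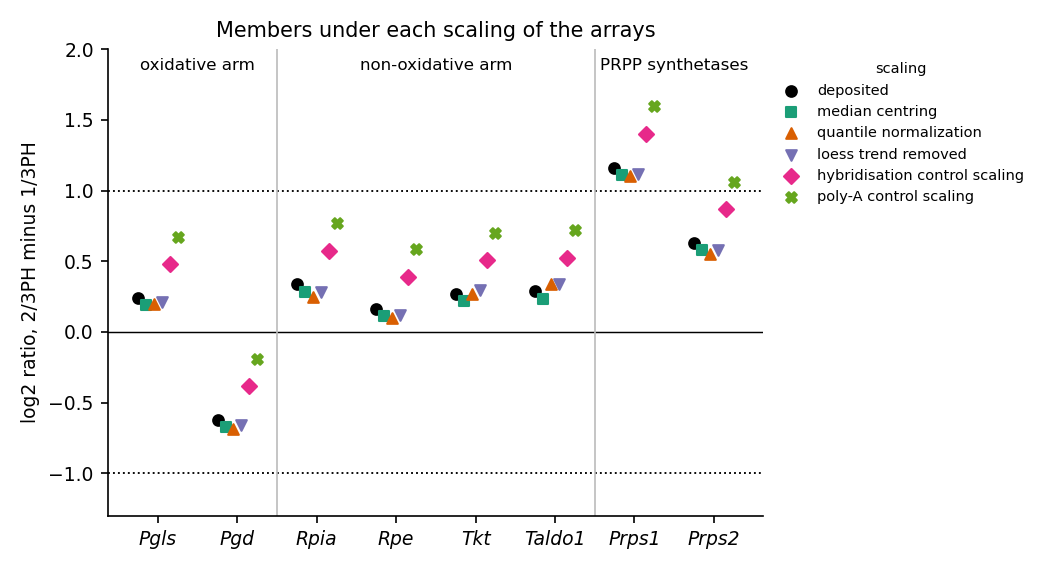
Log2 ratio, 2/3PH minus 1/3PH (vertical axis), of each member under the deposited scaling and 5 others (symbols), with 0 as a solid line and 2-fold as dotted lines. Pgd is below 0 and the other 7 members are above 0 under all 6, and Prps2 passes 2-fold under poly-A control scaling alone, at 1.06.

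The other genes of the pathway were mostly lower. Of 15 listed, 9 were measured, all above the floor, and the other 6 were not analysed here. Of the 9, 8 had log2 ratios below 0 as deposited, beside 47.1% of all genes. At least 2-fold lower was 1, beside 3.68% of all genes, and none was at least 2-fold higher, beside 6.12%. The median was -0.21, beside 0.03 for all genes above the floor. Under hybridisation and poly-A control scaling it was 0.03 and 0.22, beside 0.27 and 0.47 for all genes, with 4 and 3 genes of the list below 0. Shpk, the kinase of sedoheptulose, had signals of 831 after 1/3PH and 312 after 2/3PH, 2.66-fold lower. H6pd, which runs the first oxidative steps inside the endoplasmic reticulum and supplies NADPH there, had signals of 4291 and 2397, 1.79-fold lower. Shpk and H6pd were thus the lowest of this list, and both were also below Pgd.

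The remaining genes of that list differed less. Rgn, regucalcin, a lactonase, had signals of 28977 and 19774, 1.47-fold lower. Rbks, which phosphorylates free ribose, had signals of 3054 and 2292, 1.33-fold lower. Idnk, gluconate kinase, had a log2 ratio of -0.21 and Dera, the deoxyribose phosphate aldolase, one of -0.16. Pgm2, which interconverts pentose phosphates, stood at 0.10 and was the 1 gene above 0. The synthetase-associated proteins Prpsap1 and Prpsap2, which bind the catalytic subunits, had signals of 1670 and 1582 and of 655 and 593. Their log2 ratios of -0.08 and -0.14, above 0 under both control scalings, stood well below those of the catalytic Prps1 and Prps2.

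Enzymes that use PRPP lay on both sides of 0. Of 8 listed, 7 were measured above the floor, with a median of 0.08 and 4 of them above 0, beside 52.9% of all genes. Umps, which makes UMP, had signals of 1816 and 5026, 2.77-fold higher, and was the 1 of 7 past 2-fold, where 6.12% of all genes were. Ppat, the first enzyme of purine synthesis, had signals of 638 and 1038, 1.63-fold higher, and the adenine salvage enzyme Aprt was 1.44-fold higher. Qprt, of NAD synthesis from tryptophan, was 1.26-fold lower, and turned positive under poly-A control scaling, where all 7 were above 0.

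The lists of other NADPH sources and lipogenic genes had medians below 0 as deposited. Of 7 other NADPH sources above the floor, 4 were below 0, beside 47.1% of all genes, and 1 was 2-fold lower, beside 3.68%, with a median of -0.27 that was 0.16 under poly-A control scaling. Aldh1l1, which makes NADPH from formyl folate, had signals of 5924 and 1915, 3.09-fold lower, Aldh1l2 was 1.68-fold, Idh1 1.48-fold and Nnt 1.20-fold lower. Idh1, a cytosolic NADPH source like Pgd, had signals of 24338 and 16412 and a log2 ratio of -0.57, beside -0.62 for Pgd. Cytosolic sources did not all go this way. They were also among the 3 genes of the list above 0 as deposited, the highest at 0.08.

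Of 9 lipogenic targets of SREBP and ChREBP, 6 were below 0 as deposited, beside 47.1% of all genes, and 3 were above 0. As deposited 4 were 2-fold lower, where 3.68% of all genes were, and under both control scalings 3 were. The median of -0.84 stayed below 0 under all 5 scalings. Thrsp had signals of 9851 and 614, Acly 7865 and 2363, and Srebf1 itself 3001 and 1052. Fasn, fatty acid synthase and a large user of NADPH, had signals of 4357 and 2016, 2.16-fold lower. It was no longer past 2-fold under both control scalings.

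**Figure D4:**
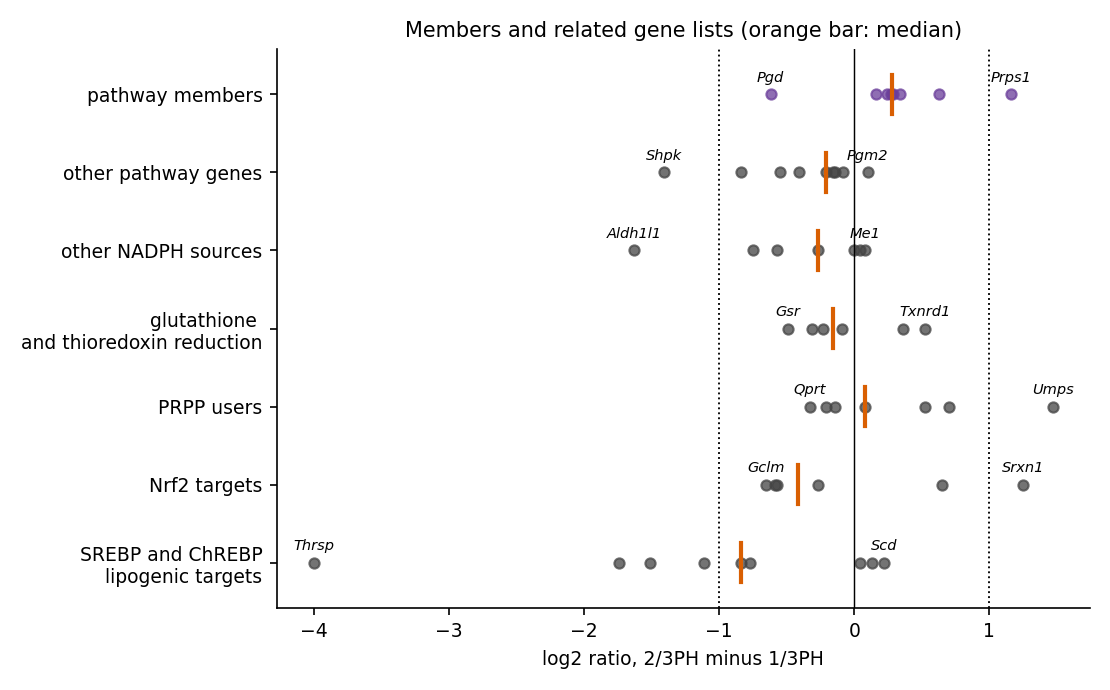
Log2 ratio, 2/3PH minus 1/3PH (horizontal axis), of each member and of each gene above the floor in 6 related lists, with medians as orange bars, 2-fold limits dotted, and the lowest and highest gene of each row named. The median is 0.28 for the members, -0.21 for the other pathway genes and -0.84 for the lipogenic targets.

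Markers of cell types also differed between the arrays, and their part in the differences of the pathway was not tested. All 7 markers of proliferating cells were at least 2-fold higher, where 6.12% of all genes were. Their median log2 ratio was 3.01, with summed signals of 7113 after 1/3PH and 29113 after 2/3PH. All 8 hepatocyte markers were above the floor, Alb among them at 34570 and 29468. As deposited all 8 were below 0, beside 47.1% of all genes. The median of -0.20 was above 0 under quantile normalization, loess and both control scalings. Their summed signal was 233836 and 208525. All 5 erythroid and neutrophil markers were below 0 under every scaling, beside 47.1% of all genes as deposited. Their median was -0.99 and their summed signal 30146 and 14646. All 6 macrophage markers were below 0 as deposited (median -0.64, summed signal 8961 and 6652). So were all 5 endothelial markers (-0.69, 6455 and 3543), beside 47.1% of all genes, though the highest endothelial ratio rounded to 0. Under poly-A control scaling, 2 macrophage markers and 1 endothelial marker were above 0. Of 6 stellate cell markers, 4 were below 0, beside 47.1% of all genes. The 2 above 0 read near the floor of 89.2, with signals of 84.9 and 97.6 and of 101 and 137. The median over the 6 was -0.76, with summed signals of 10162 and 5788. Of 4 cholangiocyte markers measured, 1 was under the floor. The other 3 were mixed, with 2 above 0, beside 52.9% of all genes, and 1 below. Krt19, 1 of the 2 above 0, read 107 and 154, near the floor. The median over the 3 was 0.23, with summed signals of 1226 and 1284. Of 4 lymphocyte markers measured, 3 were under the floor, and Gzma, the 1 above it, had signals of 151 and 62.3, at least 1.69-fold lower, with a log2 ratio below 0 under every scaling. In pooled tissue, fewer cells of a type and less RNA per cell cannot be told apart. The difference between the 3′ and 5′ control probe sets was 0.66 and 0.36 in log2 signal for GAPDH and 2.74 and 2.91 for beta-actin, in the order 1/3PH, 2/3PH.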

How the data were processed

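Liver RNA of 3 rats was pooled per group and measured on 1 array per group, so the 6 rats gave 2 arrays. Per the labels' protocols, the authors used GeneSpring 11.0 and its MAS 5.0 algorithm, and the deposited values are log2 signals. Their log2 base was checked: as powers of 2, the mean signals without the extremes were 500.3 and 500.2. The genome build is not given in the sources used here.

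Names came from the platform annotation, brought up to date by Entrez identifier with RefSeq (GRCr8). Among 31042 non-control probe sets, 20826 carried 1 symbol and were used. Another 436 carried several and 9780 were absent from the annotation, and both kinds stayed unnamed. Where a gene had several probe sets, the brightest by mean log2 signal stood for it. With 1 array per group there was no test, no p-value and no replicate error, and the number of arrays limits the precision. The naming and calling steps were run on simulated data whose changed genes lay well past the 2-fold limit. This cannot show how smaller ratios, like those of most members, are recovered.

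All members were named, with every measured gene of the list of other pathway genes and up to 4 genes of each other list by absolute log2 ratio. Members and lists were chosen with earlier results of these data known. The alternatives were 5 other scalings, 64 units added, the mean over probe sets, removal of suffixed probe sets, other floors and other fold limits. Calculations used Python 3.11.15, pandas 2.3.3 and statsmodels 0.14.6. Promoter sequences came from RefSeq (GRCr8).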

Additional observations from a re-analysis of the deposited data

How the results depend on the processing

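Prps1 was the 1 member 2-fold higher as reported, and 2 members passed with poly-A control scaling, 2 at a 1.5-fold limit and 0 at a 3-fold limit. No member was 2-fold lower, and 1 was past a 1.5-fold limit, Pgd. Poly-A control scaling moved the median log2 ratio of the oxidative arm to 0.24, of the non-oxidative arm to 0.71 and of the synthetases to 1.33, each by more than the SD of 0.33 between probe sets of a gene, and it shifts every gene alike by construction. Removing suffixed probe sets and other floors could change nothing here, since no member probe set has such a suffix and all 8 members are represented above both floors. All 8 members kept their sign under the other scalings, with 64 units added and with the mean over probe sets. The arm medians and differences otherwise stayed within that SD. Adding 64 units cannot change a sign. Nor could the mean over probe sets, since 5 members have 1 set and the sets of each remaining member share a sign. Both control scalings shift ratios upward, so under them only Pgd could have changed sign. No replicate could be left out with 1 array per group. No paired analysis was possible because each group has 1 array. Without detection calls, the dimmest probe set of Prps2, under the floor on both arrays, gives the least certain reading.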

Other observations

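Genes of the glutathione and thioredoxin systems, whose reductases use NADPH in defence against oxidants, had small differences. Of 6 measured above the floor, none was 2-fold higher or lower, beside 6.12% and 3.68% of all genes, and the median log2 ratio was -0.16, or above 0 under loess and both control scalings. Txnrd1, thioredoxin reductase of the cytosol, was 1.44-fold higher (signals of 1596 after 1/3PH and 2294 after 2/3PH) and its mitochondrial relative Txnrd2 1.29-fold higher. Gsr, glutathione reductase, was 1.41-fold lower (472 and 336) and Glrx 1.24-fold lower.

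Targets of Nrf2, a factor that also controls genes of this pathway, lay on both sides of 0. Of 6 above the floor, 4 were below 0, beside 47.1% of all genes, and 1 was 2-fold higher, beside 6.12%, with a median of -0.42 that was 0.01 under poly-A control scaling. Srxn1 was 2.38-fold higher (421 and 1003) and Gclc 1.57-fold higher (2120 and 3322), whereas Gclm, the partner subunit of Gclc, was 1.57-fold lower (3875 and 2470) and Osgin1 had signals of 5050 and 3357.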
